A study of Mus musculus with 42 samples.

Results

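The respiratory chain subunits were taken as the genes whose array symbol starts with Nduf (without the assembly factors Ndufaf), Uqcr, Cox4 to Cox8 or Atp5, or is Sdha, Sdhb, Sdhc or Sdhd. This name rule gave 82 of the 18193 genes with a probe set of 1 symbol: 36 of complex I, 4 of complex II, 8 of complex III, 17 of complex IV and 17 of complex V. Each gene was read from its probe set with the highest mean signal. The rule used no measured difference, although the subunits were chosen with earlier results of these data known. Of the 82 genes, 80 exceeded the array median on at least 4 arrays and were tested in every comparison. Ndufb4 and Cox7b2 did not do so on any of the 39 arrays used and have no usable level. The names group Ndufa4 with complex I, although it is now counted as a subunit of complex IV, and they bring in Ndufa4l2 and Cox7a2l, which are no core subunits.

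The respiratory chain of the inner mitochondrial membrane passes electrons from NADH (complex I) and succinate (complex II) through ubiquinone to complex III, then through cytochrome c to complex IV, which reduces oxygen. Complexes I, III and IV pump protons, and complex V, the ATP synthase, uses the proton gradient to make ATP. Slow oxidative fibres, which fill much of the mouse soleus, hold more mitochondria than the fast fibres that make up most of the quadriceps. Complex IV has tissue isoforms: Cox6a2, Cox7a1 and Cox8b are the heart and muscle forms of subunits whose widely expressed forms are Cox6a1, Cox7a2 and Cox8a.

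RNA of quadriceps and soleus of male mice was measured on 1-colour Affymetrix arrays, 1 array per muscle, and the levels are the deposited log2 values. One genotype is wild type (wt). The other, C3KO, is taken from general knowledge to lack Capn3, the gene of the muscle protease calpain 3. The strain label, shared by both genotypes, is 129 SvEvBrd x C57BL/6 heterozygotes. The ages are given as 11 to 12 months for adults and 2 to 3 months for the young. The quadriceps groups held 6 wt adult, 7 C3KO adult, 4 wt young and 4 C3KO young mice, and the soleus groups 5, 6, 4 and 3. Both muscles were available from 18 of the 21 mice (5, 6, 4 and 3), so the muscles were compared within each mouse. The arrays of wt adult mouse M2-1 were not assigned because title and description name different muscles. From C3KO young mouse H4-2 the soleus array was left out, because its mean over hepatocyte genes was 12.57, against 4.00 to 4.08 in the other soleus arrays of its group. With it included, the counts below were 26, 35, 29 and 26 in place of 30, 38, 29 and 28. Every name of a wt young mouse begins with F4, so genotype and age differences that involve them cannot be told apart from a property of these mice. Capn3 was lower in C3KO, with log2 changes of −5.87 and −5.81 in adult and young quadriceps and −5.80 and −5.77 in adult and young soleus, with no overlap between genotypes.

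Soleus held more mRNA of a core of subunits than quadriceps in every group of mice, while most subunits differed little. In wt adults 29 of 80 members were higher in soleus and 1 was lower at an adjusted p under 0.05 (limma on the differences within each mouse, Benjamini-Hochberg over all genes tested), where 19.9% of all 12218 genes were higher and 23.3% lower (43.2% in either direction). In C3KO adults 26 were higher and 12 lower (all genes: 24.5% and 24.6%, 49% in all), in wt young mice 29 were higher and 0 lower (18.3% and 17.4%, 35.8% in all), and in C3KO young mice 28 and 0 (13.1% and 19.4%, 32.5% in all). The shares of members that were higher thus lay above those of all genes in each group, and the shares that were lower lay below them. At an unadjusted p under 0.05 limma had 0 members lower in wt young and 1 in C3KO young mice (21.1% and 24.5% of all genes). The median member differed by a log2 value of 0.14 in wt adults, 0.04 in C3KO adults, 0.16 in wt young and 0.20 in C3KO young mice, against 0.00, 0.00, 0.00 and −0.03 over all genes. After quantile normalization the members called higher and lower were 20 and 3 in wt adults and 24 and 3 in wt young mice. The count of calls fell from 30 to 17 without wt adult mouse M2-2 and to 19 without W2-1, from 29 to 18 without wt young mouse F4-3 and to 19 without F4-1, and from 28 to 12 without C3KO young mouse H4-1 and to 18 without J4-2. Of the 125 calls of members in the 4 groups, 63 were kept with any 1 mouse left out and 62 were lost in at least 1 such fit.

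**Figure D1:**
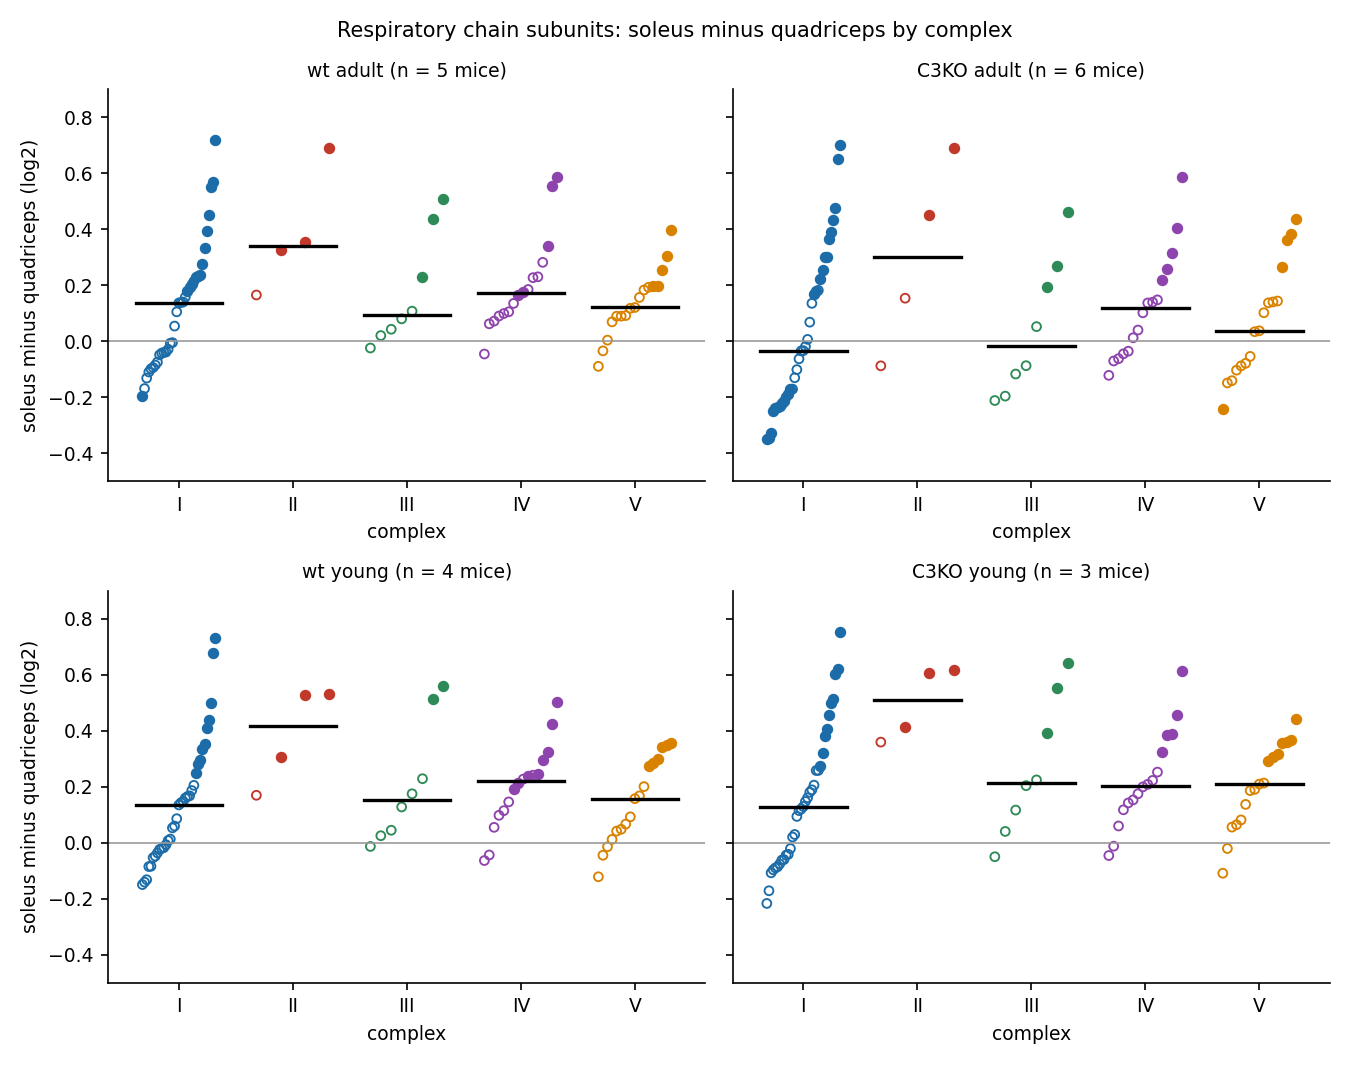
Soleus minus quadriceps difference (log2, vertical axis) of each of the 80 tested subunits, by complex, in the 4 groups of mice. Filled points passed at an adjusted p under 0.05, open points did not, and bars are medians. Complex II has the highest median in all 4 panels. Filled points below 0 are numerous only in complex I of C3KO adults (11 of 35 subunits, where 24.6% of all genes were lower).

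The plot of muscle differences by complex shows that complexes differ in how evenly their subunits moved. In all 4 groups 19 of 80 members were higher in soleus (10.1% of all genes were), and 0 were lower in all 4 (12.8% of all genes were). These were 9 of 35 tested subunits of complex I, 2 of 4 of complex II, 2 of 8 of complex III, 3 of 16 of complex IV and 3 of 17 of complex V. A further 29 members passed in no group, and 20 members were higher in soleus in all 18 mice. The shares of all genes with these outcomes were not computed, so neither count is shown to be particular to the subunits. With any 1 mouse left out, 5 of the 19 kept their call in all 4 groups: Ndufv1, Ndufb3, Ndufa8 and Ndufb7 of complex I and Sdha of complex II. The other 14 lost it in at least 1 group without some mouse. Among these, Cox4i1 and Atp5b lost it in 8 of 18 such fits each, with log2 differences that ranged from 0.15 to 0.36 and from 0.15 to 0.35. In bulk muscle, more mRNA per fibre and more fibres that express a gene cannot be told apart.

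Complex I, which oxidises NADH, held the member with the largest difference in each of the 4 groups. Ndufv1, which carries the site where NADH is oxidised, was read at 11.69, 12.10 and 12.15 (lowest, median and highest) in quadriceps of wt adults and at 12.48, 12.58, 12.60, 12.68 and 12.74 in their soleus. In C3KO adults the lowest, median and highest levels were 11.73, 11.98 and 12.20 in quadriceps and 12.59, 12.63 and 12.73 in soleus. Young wt mice had 11.82, 11.90, 11.91 and 12.01 in quadriceps and 12.55, 12.59, 12.59 and 12.62 in soleus. The C3KO young mice had 11.85, 11.91, 11.95 and 11.97, and 12.65, 12.66 and 12.67. Every soleus array thus lay above every quadriceps array of its group. The difference was 0.55 ± 0.08 (SE, adjusted p = 1.08e-05) in wt adults, 0.65 ± 0.07 (2.62e-07) in C3KO adults, 0.68 ± 0.09 (4.69e-06) in wt young and 0.75 ± 0.10 (9.51e-06) in C3KO young mice by limma, and all 18 mice were higher in soleus.

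Ndufa10, an accessory subunit, was higher by 0.57 ± 0.11, 0.70 ± 0.10, 0.73 ± 0.13 and 0.60 ± 0.15 in wt adult, C3KO adult, wt young and C3KO young mice. Without mouse H4-1 its C3KO young value was 0.43 and no longer passed (adjusted p = 0.0826, limma). Ndufb3, an accessory subunit of the membrane arm, was higher by 0.72 ± 0.11, 0.39 ± 0.10, 0.50 ± 0.12 and 0.62 ± 0.14, and Ndufa8 by 0.45 ± 0.08, 0.43 ± 0.07, 0.44 ± 0.09 and 0.51 ± 0.10 in the order of groups above. Ndufb7 had the highest quadriceps level of 12.00 and the lowest soleus level of 12.26 in wt adults, and its difference in C3KO adults was 0.48 ± 0.06. Ndufs1, which carries iron-sulfur clusters of the electron path, was higher by 0.23 ± 0.09 to 0.46 ± 0.12. Its lowest value, in wt adults, did not pass without M2-2 (0.19), W2-1 (0.25), W2-3 (0.22) or X2-2 (0.18), nor did those of wt young mice without F4-1 (0.29) and C3KO young mice without H4-1 (0.39). Ndufb10 (0.33 to 0.40), Ndufa9 (0.20 to 0.38) and Ndufab1 (0.23 to 0.30) completed the 9 subunits higher in all 4 groups. With 1 mouse left out, Ndufa9 lost a call in 7 of 18 fits, and Ndufb10 and Ndufab1 in 3 of 18 each. The wt adult call of Ndufa9 was kept in 2 of 7 other settings. With plain probe sets Ndufab1 passed in no group.

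The other subunits of complex I went both ways. Ndufs7, Ndufb5 and Ndufb9 were higher in 2 groups and Ndufb8, Ndufs8 and Ndufs4 in 1, while 10 subunits were lower in 1 group, 1 was lower in 2 and 9 passed in no group. The Ndufs4 call, in wt adults, was kept in 3 of 7 other settings and in 2 of 5 fits with 1 mouse left out. Over all 18 mice the Ndufs4 probe set used (mean level 11.36) had a mean difference of 0.08. Dimmer ones at 9.00 and 8.75 had −0.42 and 0.09, and were higher in 2 and 12 mice. Ndufb8 and Ndufb9 were higher in soleus in 18 of 18 mice. Of all 35 tested subunits, 20 had a positive difference in wt adults and 16 in C3KO adults, and the median differences were 0.14, −0.03, 0.14 and 0.13. In C3KO adults 11 of the 35 subunits were lower in soleus and 12 were higher, where 24.6% of all genes were lower and 24.5% higher. The 11 include Ndufa4, which is placed here by its name only. All 11 lower calls were lost with only the arrays whose description starts with code 1-3, which leaves fewer mice. So were the higher calls of Ndufab1, Ndufb3, Ndufb8, Ndufb9, Ndufb10 and Ndufs7. Ndufa4 had the largest negative value (−0.35 ± 0.09, adjusted p = 0.00409, limma), with lowest, median and highest levels of 11.93, 12.18 and 12.46 in quadriceps and 11.79, 11.89 and 12.04 in soleus, which overlap only through the quadriceps array of U2-3, a mouse with no soleus array. All 6 mice with both muscles were lower in soleus. Ndufb2 (−0.35 ± 0.11), Ndufb1 (−0.33 ± 0.11) and Ndufv2 (−0.25 ± 0.07), the latter a subunit with an iron-sulfur cluster beside Ndufv1, followed. Ndufv2 went the other way by its other probe sets: over all 18 mice the one used (mean level 12.88) had a mean difference of −0.13, while those at 12.32 and 11.93 had 0.12 and 0.08 and were higher in 17 and 14 mice. In the other groups Ndufa4 had −0.04, −0.02 and −0.09, and Ndufb2 −0.04, 0.01 and −0.06. The difference between genotypes was tested directly in adults and did not pass for Ndufa4 (−0.31 ± 0.14, adjusted p = 0.638, limma) or any other member, so the lowering is not shown to be particular to C3KO. Ndufc1 was the only member lower in a second group (wt adults, −0.20 ± 0.07, adjusted p = 0.0240, limma, and C3KO adults, −0.23 ± 0.06). Its wt value was −0.18 without M2-2 and no longer passed, likewise −0.20 without W2-1, −0.18 without W2-3 and −0.17 without X2-3. The call of Ndufb1 was lost without Q2-1 (−0.30). With 1 mouse left out, the C3KO adult calls of Ndufb11 and Ndufc2 were kept in 1 of 6 fits each. That of Ndufv3 was kept in 2 of 6 and that of Ndufa3 in 4 of 6. Other probe sets of Ndufc2 (mean levels 11.63 and 11.51) had mean differences of 0.09 and 0.07 over 18 mice, against −0.11 by the one used. With plain probe sets Ndufb2 was −0.02 and Ndufc1 −0.07 in C3KO adults, and neither passed.

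Complex II, the succinate dehydrogenase that also belongs to the citric acid cycle, had median differences of 0.34, 0.30, 0.42 and 0.51 in wt adult, C3KO adult, wt young and C3KO young mice. Sdha, the flavoprotein that binds succinate, lay between 11.74 and 12.12 (median 11.86) in quadriceps of wt adults, and the soleus arrays read 12.08, 12.33, 12.33, 12.35 and 12.42. In C3KO adults the lowest, median and highest levels were 11.59, 11.83 and 11.98 against 12.13, 12.27 and 12.40. Young wt mice had 11.63, 11.68, 11.82 and 11.84 against 12.20, 12.27, 12.28 and 12.35, and C3KO young mice 11.60, 11.63, 11.72 and 11.95 against 12.35, 12.39 and 12.42. The muscles overlapped only in wt adults, through 1 soleus array. Differences were 0.35 ± 0.09, 0.45 ± 0.08, 0.53 ± 0.10 and 0.62 ± 0.11 (adjusted p = 0.00263, 8.88e-05, 0.000241 and 0.000254, limma), higher in 18 of 18 mice. Over all 18 mice the Sdha probe set used (mean level 12.035) had a mean difference of 0.47. Another of similar brightness (12.003) had 0.25, also higher in 18 of 18 mice, and a dim one (5.92) had 0.10. Sdhc, a membrane anchor, was higher by 0.69 ± 0.12, 0.69 ± 0.11, 0.53 ± 0.14 and 0.61 ± 0.16. Its C3KO young value was 0.52 without J4-1 and then did not pass. Sdhb, the iron-sulfur subunit, passed in 3 groups (0.33, 0.30 and 0.41) and had 0.15 ± 0.07 in C3KO adults. Without F4-1 its wt young value was 0.27 and without H4-1 its C3KO young value was 0.35, and neither passed. Sdhd, the other anchor, passed in none (0.16 ± 0.11, −0.09 ± 0.10, 0.17 ± 0.12 and 0.36 ± 0.14) and was higher in 11 of 18 mice. Over all 18 mice a dimmer probe set of Sdhc (mean level 9.01) had 0.39, against 0.64 by the probe set used. A dimmer probe set of Sdhd (8.59) had 0.24, against 0.11, and was higher in 15 of 18 mice. The complex II medians with these other probe sets were not tested.

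**Figure D2:**
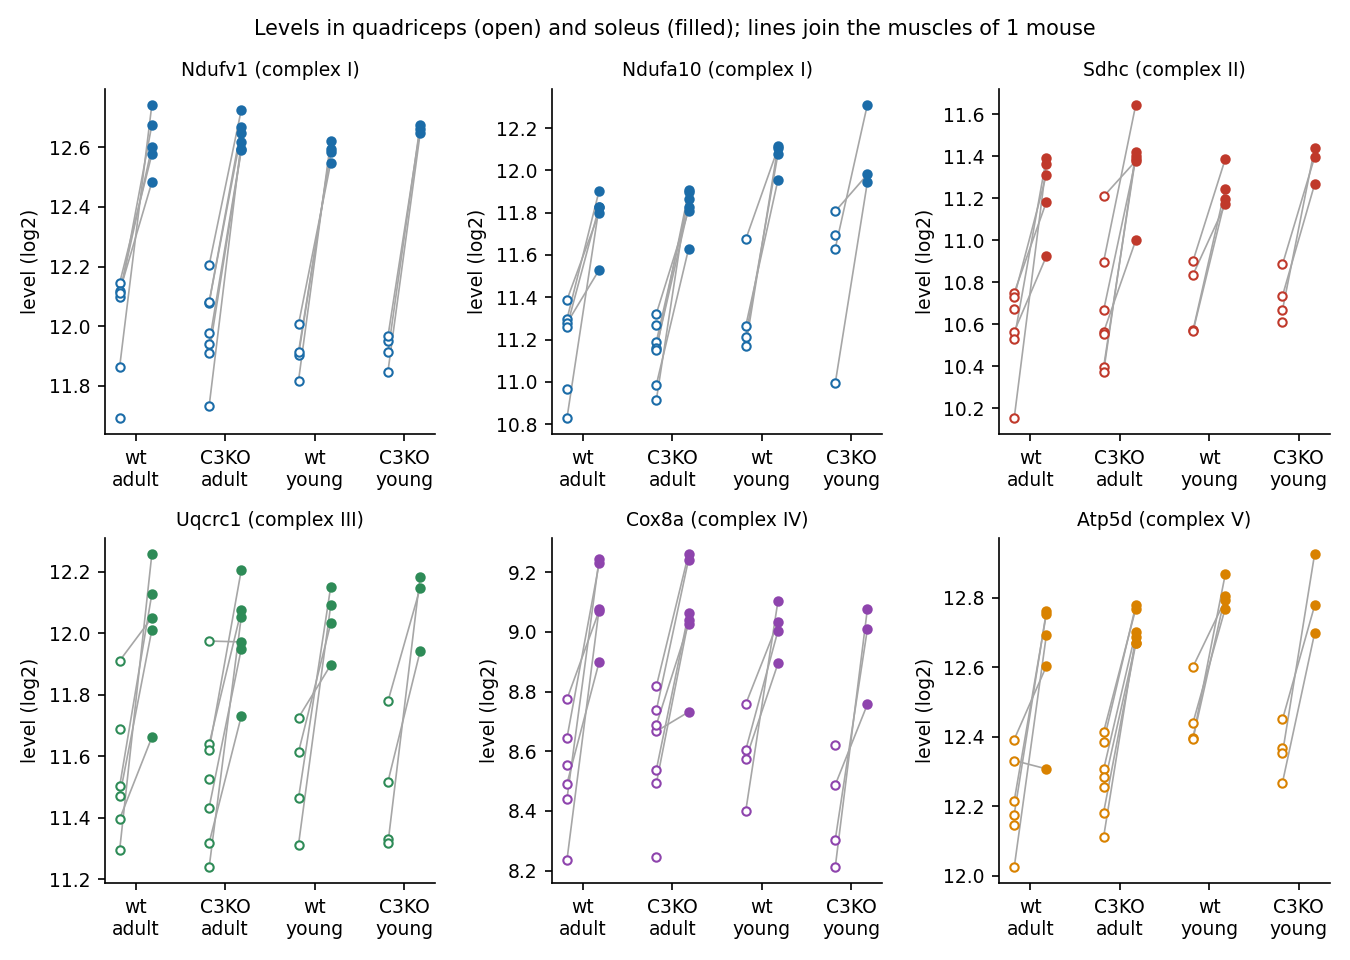
Level (log2, vertical axis) of 6 subunits in each array, with quadriceps as open and soleus as filled points and lines that join the muscles of 1 mouse. The panels show 1 or 2 subunits of each complex, and soleus was higher for Ndufv1, Ndufa10, Sdhc and Cox8a in all 18 mice with both muscles, and in 17 of 18 for Uqcrc1 and Atp5d.

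In complex III, which passes electrons from ubiquinol to cytochrome c, the core protein Uqcrc1 and the small subunit Uqcrq were higher in soleus in all 4 groups. Uqcrc1 read 11.30, 11.49 and 11.91 (lowest, median and highest) in quadriceps of wt adults and 11.66, 12.01, 12.05, 12.13 and 12.26 in soleus. In C3KO adults it read 11.24, 11.53 and 11.97 against 11.73, 12.01 and 12.21. The muscles overlapped in both adult groups and not in the young ones. The differences were 0.51 ± 0.12, 0.46 ± 0.11, 0.51 ± 0.14 and 0.55 ± 0.16 (adjusted p = 0.00197, 0.00167, 0.00550 and 0.00972, limma). Without F4-3 the wt young value was 0.43, and without J4-1 the C3KO young value was 0.40, and neither passed. Uqcrq was higher by 0.44 ± 0.12, 0.27 ± 0.11, 0.56 ± 0.13 and 0.64 ± 0.15. Its C3KO adult call was lost without Q2-2 (0.22), Q2-3 (0.26), Q2-4 (0.28) or U2-1 (0.22). With plain probe sets Uqcrq was called higher in no group, and its other probe sets were dim (mean level 4.87 or less). Uqcrc2, the other core protein, passed in wt adults (0.23), C3KO adults (0.19) and C3KO young mice (0.39), and these calls depended on single mice. The first was lost without M2-2 (0.21), W2-1 (0.24), W2-3 (0.25) or X2-2 (0.19), the second without Q2-2 (0.19), Q2-3 (0.20), U2-1 (0.16) or U2-2 (0.15), and the third without H4-1 (0.35) or J4-2 (0.29). Of 6 other settings, the wt adult call was kept in 1 and the C3KO adult call in 2. Uqcrfs1, the Rieske iron-sulfur protein, passed in no group (0.05 to 0.20). Uqcr10 passed in none either, and over all 18 mice its probe set used (mean level 12.19) had a mean difference of −0.04. Its dimmer probe sets (9.82 and 9.35) had −0.41 and −0.61 and were higher in 2 and 1 of 18 mice.

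In complex V Atp5d, Atp5b and Atp5g3, the last 1 of 3 genes for the subunit c of the rotor ring, were higher in soleus in all 4 groups. Atp5d had a lowest, median and highest level of 12.02, 12.20 and 12.39 in quadriceps of wt adults, with soleus at 12.31, 12.60, 12.69, 12.75 and 12.76. In C3KO adults quadriceps had 12.11, 12.29 and 12.41 and soleus 12.67, 12.69 and 12.78. In wt adults 1 soleus array overlapped with quadriceps and 4 of 5 mice were higher, while the muscles were apart in the other groups. The differences were 0.40 ± 0.09, 0.44 ± 0.08, 0.35 ± 0.10 and 0.44 ± 0.12 (adjusted p = 0.00119, 0.000149, 0.00943 and 0.00534, limma). Without F4-2 the wt young value was 0.31 and without J4-1 the C3KO young value was 0.38, and neither passed. The subunit c genes had these values. Atp5g3 had 0.30, 0.38, 0.36 and 0.36, Atp5g1 0.19, 0.14, 0.16 and 0.37 with a call in C3KO young mice only, and Atp5g2 0.09, −0.08, −0.04 and 0.14 with no call. Atp5a1, the alpha subunit, passed in C3KO adult, wt young and C3KO young mice (0.36, 0.34 and 0.36). In C3KO young mice the calls of Atp5g3 and Atp5a1 were lost without H4-1 (0.34 and 0.35) or J4-1 (0.30 and 0.28), and that of Atp5g1 without H4-1 (0.31) or J4-2 (0.34). Atp5mpl was lower in C3KO adults (−0.24 ± 0.08, adjusted p = 0.0213, limma), a call lost without Q2-3 (−0.23) or U2-1 (−0.22).

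In complex IV the measured differences of tissue isoforms were unequal. Cox6a1, the widely expressed form, had lowest, median and highest levels of 10.39, 10.46 and 10.67 in quadriceps of wt adults and 10.96, 10.97, 11.00, 11.02 and 11.32 in soleus. In C3KO adults the levels were 10.46, 10.62 and 10.96 against 11.06, 11.25 and 11.46. Young wt mice had 10.63, 10.66, 10.94 and 11.04 against 11.20, 11.30, 11.33 and 11.44, and C3KO young mice 10.77, 10.80, 10.81 and 10.83 against 11.10, 11.11 and 11.35. The muscles did not overlap in any group, and the differences were 0.55 ± 0.09, 0.58 ± 0.09, 0.50 ± 0.10 and 0.38 ± 0.12 (adjusted p = 5.73e-05, 7.45e-06, 0.000697 and 0.0179, limma). The C3KO young value did not pass without H4-1 (0.41) or J4-1 (0.30). Its muscle form Cox6a2 differed by 0.13 ± 0.07, 0.10 ± 0.06, 0.25 ± 0.08 and 0.22 ± 0.09, with a call in wt young mice that was lost without F4-4 (0.20). Cox8a was higher by 0.59 ± 0.10, 0.40 ± 0.09, 0.42 ± 0.11 and 0.61 ± 0.13, and its muscle form Cox8b had 0.10, −0.04, 0.32 and 0.21, with a call in wt young mice. The call of Cox8a in wt young mice was lost without F4-4 (0.33), and that of Cox8b without F4-1 (0.27), F4-3 (0.33) or F4-4 (0.24) and after quantile normalization (0.24). In the third pair it was the muscle form Cox7a1 that had the higher values (0.23, 0.14, 0.30 and 0.46, with calls in both young groups), and the widely expressed Cox7a2 had 0.06, −0.07, −0.06 and −0.05 with no call. The wt young call of Cox7a1 was kept in 3 of 7 other settings and lost without F4-1 (0.23), F4-2 (0.32) or F4-3 (0.28), and the C3KO young call was lost without H4-1 (0.47) or J4-2 (0.37).

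These isoform pairs were tested within each mouse, as the soleus minus quadriceps difference of the first gene less that of the second. The test was chosen after the values had been seen. The shift of Cox6a1 against Cox6a2 was 0.36 ± 0.25 (SD, n = 18 mice), positive in 17 of 18 mice (two-sided sign-flip permutation test with 100000 resamples, p = 1e-05, the smallest these can give, adjusted p = 3e-05 over 3 pairs). Cox8a against Cox8b shifted by 0.37 ± 0.25, positive in 16 of 18 mice (permutation p = 0.0001, adjusted p = 0.0001). Cox7a2 against Cox7a1 shifted by −0.28 ± 0.20, positive in 2 of 18 mice (permutation p = 5e-05, adjusted p = 7.5e-05). The shift was thus towards the widely expressed form in soleus in the Cox6a and Cox8 pairs and towards the muscle form in the Cox7a pair. In all 3 pairs the form with the smaller difference was the one with the brighter probe set (mean level 13.48 for Cox6a2 against 10.92 for Cox6a1, 13.11 for Cox8b against 8.77 for Cox8a, and 13.25 for Cox7a2 against 12.23 for Cox7a1), and the part of signal level in these shifts was not tested. Other probe sets were tried after the values had been seen. With a dimmer probe set of Cox6a2 (mean level 12.50, mean difference 0.29 over 18 mice in place of 0.16) the first shift was 0.23, positive in 14 of 18 mice (permutation adjusted p = 0.0018). With a dimmer probe set of Cox7a2 (12.64) the Cox7a shift was −0.17, positive in 4 of 18 mice (permutation adjusted p = 0.0032). Both shifts were thus over 1.5 times smaller by the dimmer probe set. With other probe sets of Cox6a1 and Cox8a the shifts were 0.38 and 0.42. By group the median shift of Cox8a ranged from 0.07 in wt young mice to 0.55 in C3KO adults.

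**Figure D3:**
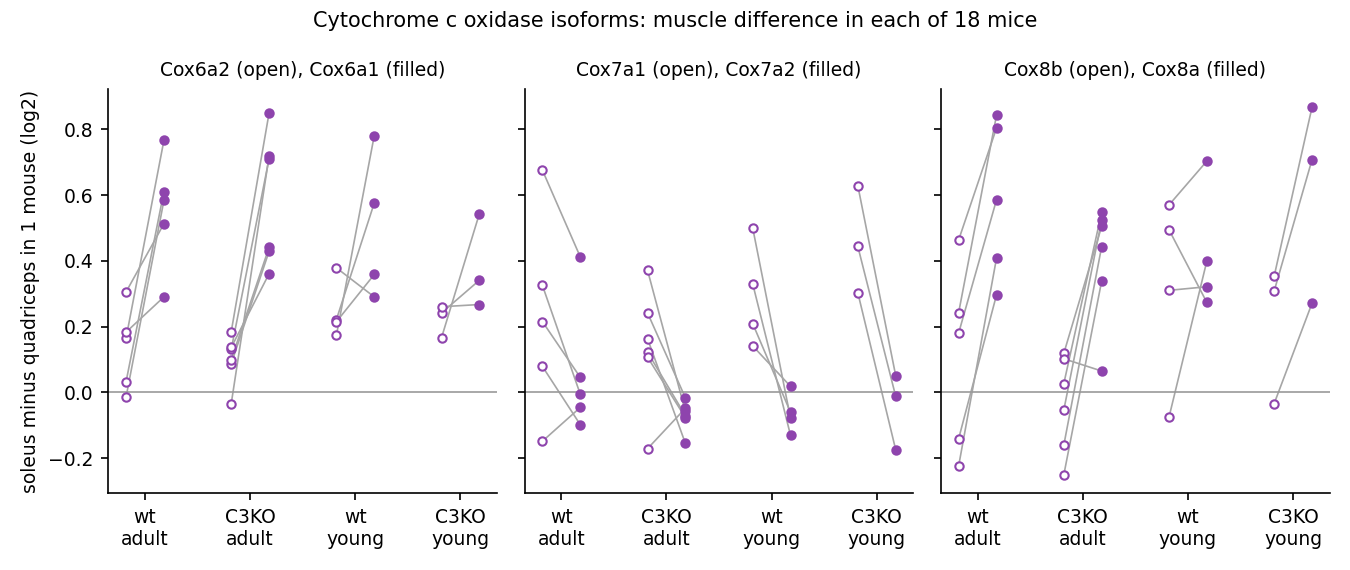
Soleus minus quadriceps difference (log2, vertical axis) of the isoforms of 3 complex IV subunits in each of 18 mice, with the muscle form as open and the widely expressed form as filled points and lines that join both forms of 1 mouse. The filled point lies higher in 17 of 18 mice for Cox6a1, in 16 of 18 for Cox8a and in 2 of 18 for Cox7a2.

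Cox4i1, the common form of subunit IV, was the other complex IV gene higher in all 4 groups, by 0.18 ± 0.07, 0.22 ± 0.06, 0.24 ± 0.08 and 0.32 ± 0.09, and Cox4i2 passed in no group. After quantile normalization the Cox4i1 values of wt adult (0.10) and wt young mice (0.13) did not pass. Cox6b1 and Cox6b2 did not pass either, and Ndufa4l2 passed in none (0.13 to 0.18). The probe sets of Cox4i2 (mean level 4.51), Cox6b2 (4.78), Ndufa4l2 (6.38) and Cox8c (6.41) were dim. That of Cox4i2 exceeded the array median on 27 of 39 arrays. Cox8c passed in C3KO young mice (0.39 ± 0.15, adjusted p = 0.0491, limma), a call lost without H4-1 (0.41), J4-1 (0.28) or J4-2 (0.49) and kept in 3 of 7 other settings. Cox7a2l, which takes part in joining complexes into supercomplexes, was higher in both adult groups (0.34 ± 0.09 and 0.31 ± 0.08) and in all 18 mice. Cox5a was higher by 0.26 ± 0.07 in C3KO adults and 0.22 ± 0.08 in wt young mice. The wt young call was kept in 3 of 7 other settings and lost without F4-1 (0.16), F4-2 (0.21) or F4-3 (0.22). Another bright probe set of Cox5a (mean level 12.74) had a mean difference of −0.06 and was higher in 7 of 18 mice.

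Promoters are shown for the 2 isoform pairs of complex IV that RefSeq windows (build GRCm38.p6) cover in full, since the differences of their forms between the muscles were unequal. Cox6a2 has no entry in the table used. Each window is 300 bases, 250 before and 50 after the start, 5′ to 3′ on the gene's strand. Capitals mark matches, on either strand, to ACTTCCG (the core of sites of the ETS family, which includes GABP), GCGCANGC (NRF1), AAGGTCA (estrogen-related receptors), CAGCTG (an E-box of the kind bound by MyoD) or TATAAA (the core of the box near which many promoters start). The windows are chr19:7217567-7217866 (minus strand) for Cox8a, chr7:140900397-140900696 (minus) for Cox8b, chr9:79759804-79760103 (minus) for Cox7a2 and chr7:30183921-30184220 (plus) for Cox7a1.
Cox8a: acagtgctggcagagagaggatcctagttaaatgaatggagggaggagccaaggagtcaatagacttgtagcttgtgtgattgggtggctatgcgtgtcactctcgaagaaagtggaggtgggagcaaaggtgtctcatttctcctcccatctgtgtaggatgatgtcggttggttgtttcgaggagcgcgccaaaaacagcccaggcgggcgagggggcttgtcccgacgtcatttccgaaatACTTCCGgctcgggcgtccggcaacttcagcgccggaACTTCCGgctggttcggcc
Cox8b: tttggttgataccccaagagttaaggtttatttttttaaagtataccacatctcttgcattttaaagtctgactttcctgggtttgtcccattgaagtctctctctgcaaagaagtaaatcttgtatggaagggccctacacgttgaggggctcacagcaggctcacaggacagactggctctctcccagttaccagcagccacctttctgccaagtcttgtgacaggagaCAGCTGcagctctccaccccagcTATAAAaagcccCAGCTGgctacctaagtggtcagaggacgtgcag
Cox7a2: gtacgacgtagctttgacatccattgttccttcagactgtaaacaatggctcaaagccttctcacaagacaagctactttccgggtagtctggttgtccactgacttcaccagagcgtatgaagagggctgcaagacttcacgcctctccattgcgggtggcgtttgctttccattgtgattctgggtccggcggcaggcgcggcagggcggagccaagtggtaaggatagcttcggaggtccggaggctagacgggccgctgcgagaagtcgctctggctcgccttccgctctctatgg
Cox7a1: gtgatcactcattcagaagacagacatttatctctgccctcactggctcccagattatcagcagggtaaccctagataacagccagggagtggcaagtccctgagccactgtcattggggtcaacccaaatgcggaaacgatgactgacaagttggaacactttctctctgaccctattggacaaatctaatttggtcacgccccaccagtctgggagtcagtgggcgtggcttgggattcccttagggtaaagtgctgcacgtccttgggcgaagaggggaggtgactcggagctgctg

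The Cox8a window held 2 matches to ACTTCCG, and the Cox8b window held 2 matches to CAGCTG and 1 to TATAAA, while the windows of Cox7a1 and Cox7a2 held none of the 5 motifs. Windows were found for 67 of the 82 members, 72 windows in all. ACTTCCG was in 15.3% of these and in 6.42% of all 32851 windows, GCGCANGC in 30.6% and 9.95%, AAGGTCA in 11.1% and 4.72%, CAGCTG in 8.33% and 16.3%, and TATAAA in 12.5% and 13.6%. For the 15 of 19 members higher in all 4 groups that have windows, 16 windows held ACTTCCG in 2 and GCGCANGC in 6. A match describes these letters and is no evidence of binding.

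Neighbouring pathways had larger or smaller median differences than the subunits, and their lists were chosen with earlier results of these data known. The counts stand beside those of all genes. In the order of groups, 19.9%, 24.5%, 18.3% and 13.1% of all genes were higher, and 23.3%, 24.6%, 17.4% and 19.4% were lower. All 13 tested genes of mitochondrial fatty acid oxidation were higher in soleus in all 4 groups, with medians of 1.12, 1.03, 1.12 and 1.44. Hadha, of the trifunctional protein, was higher by 1.32 ± 0.16, 1.31 ± 0.14, 1.55 ± 0.18 and 1.74 ± 0.20. Of 17 genes of the citric acid cycle and pyruvate dehydrogenase, 10, 10, 9 and 10 were higher and 0 lower, with medians of 0.28, 0.27, 0.27 and 0.39. These medians lay below those of complex II by the probe sets used. Ogdh, of the oxoglutarate dehydrogenase complex, had 1.09 ± 0.14 in wt adults, and Idh2 had 2.79 ± 0.20, but 0.35 and no call when only probe sets with a plain ending were used. Of 16 genes of electron carriers and their supply, 10 were higher in each group (medians of 0.38, 0.48, 0.41 and 0.44), led by Coq8a of ubiquinone synthesis (1.57 ± 0.14 in wt adults) and Etfdh, which feeds electrons from fatty acids to ubiquinone (0.95 ± 0.11). Of 11 glycolytic genes 10 were lower and 1, Hk2, was higher in each group, although the call of Hk2 in wt young mice was lost without F4-3 (0.40). Ldha, the muscle form of lactate dehydrogenase, differed by −1.21 ± 0.09 in wt adults. Assembly factors of the complexes went both ways, with 8, 14, 10 and 6 of 43 higher and 14, 15, 13 and 11 lower and medians of 0.00, −0.07, 0.04 and 0.03. Sdhaf4 was higher by 1.30 ± 0.15 and Cox11, a copper chaperone, had −0.78 ± 0.10 in wt adults. Mitochondrial ribosomal proteins were mixed too, with 23, 19, 21 and 17 of 76 higher and 7, 20, 2 and 7 lower and medians of 0.05, −0.01, 0.09 and 0.10. Of 22 regulators of mitochondrial biogenesis, 9, 11, 7 and 8 were higher and 5, 6, 3 and 4 lower, with medians of 0.04, 0.24, 0.08 and 0.01. Esrrg, an estrogen-related receptor, was higher by 2.98 ± 0.19, 2.57 ± 0.17, 2.64 ± 0.21 and 3.04 ± 0.25.

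Fibre and cell type markers moved with the muscle as well, and their part in the subunit differences was not tested. The shares of all genes called in each group are those given above with the pathways. Of 12 slow fibre genes 11 were higher in soleus in each group, and their mean lay between 5.68 and 9.73 on quadriceps arrays and between 12.43 and 12.77 on soleus arrays. Fast fibre genes were lower in 11, 11, 10 and 7 of 12, with means of 13.83 to 13.95 in quadriceps and 11.07 to 13.40 in soleus. Endothelial genes were higher in 7, 6, 5 and 3 of 7, with means of 6.16 to 7.05 and 6.79 to 7.59. Macrophage genes were lower in 8, 9, 7 and 9 of 9, with means of 6.28 to 7.18 and 5.57 to 6.57. Adipocyte genes were lower in 4, 4, 0 and 2 of 5 and higher in 1, 0, 1 and 1, fibroblast and tendon genes lower in 3, 5, 4 and 7 of 9 and higher in 1, 2, 2 and 0, and Schwann cell genes higher in 2, 2, 2 and 1 of 3. Hepatocyte means stayed between 3.89 and 4.46 on all arrays used. Most members were among the brightest features of the arrays, and of the 17 with a mean level of 13 and over the largest mean difference was 0.35, against 0.66 among the 36 between 12 and 13. The medians did not fall in this way. They were 0.15 at 13 and over, 0.13 at 12 to 13, 0.12 at 11 to 12 and 0.17 under 11. Members higher in all 4 groups were 2 of 17 at 13 and over and 7 of 36 at 12 to 13. They were 7 of 17 at 11 to 12 and 3 of 10 under 11. The part of signal level in the differences was not tested. Other probe sets of the members that passed the filter gave a mean difference of the same sign in 61 of 74 cases, a count that does not compare sizes.

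Loss of Capn3 changed no subunit detectably in any muscle or age. Limma called 0 of 80 members in adult quadriceps (0.689% of all 11900 genes), young quadriceps (0.933%), adult soleus (0.419% of 11930) and young soleus (0.327%). At an unadjusted p under 0.05 there were 6, 4, 5 and 0 members, lower shares than those of all genes (10.8%, 11.1%, 10.8% and 9.85%). The median member differed by 0.04, −0.06, −0.04 and −0.05, against 0.00, 0.00, 0.01 and −0.04 over all genes. The 95% interval of the difference lay within ± 0.5 log2 units for 80, 78, 79 and 79 of 80 members, so changes of that size were outside the interval for nearly all subunits. Arrays of the genotypes did not overlap for 0, 4, 2 and 13 members in that order (all genes: 0.605%, 6.67%, 1.32% and 10.9%), and of the 13 in young soleus 12 were lower in C3KO (all genes: 8.31%). In that comparison the genotypes also lay apart in macrophage genes, with means of 5.57 to 6.23 in C3KO and 6.30 to 6.57 in wt (9 of 9 with a negative difference, median −0.63), and in adipocyte genes, with 6.02 to 6.38 and 6.63 to 7.15 (5 of 5, median −0.81). None of these genes passed, and their part in the member values was not tested.

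**Figure D4:**
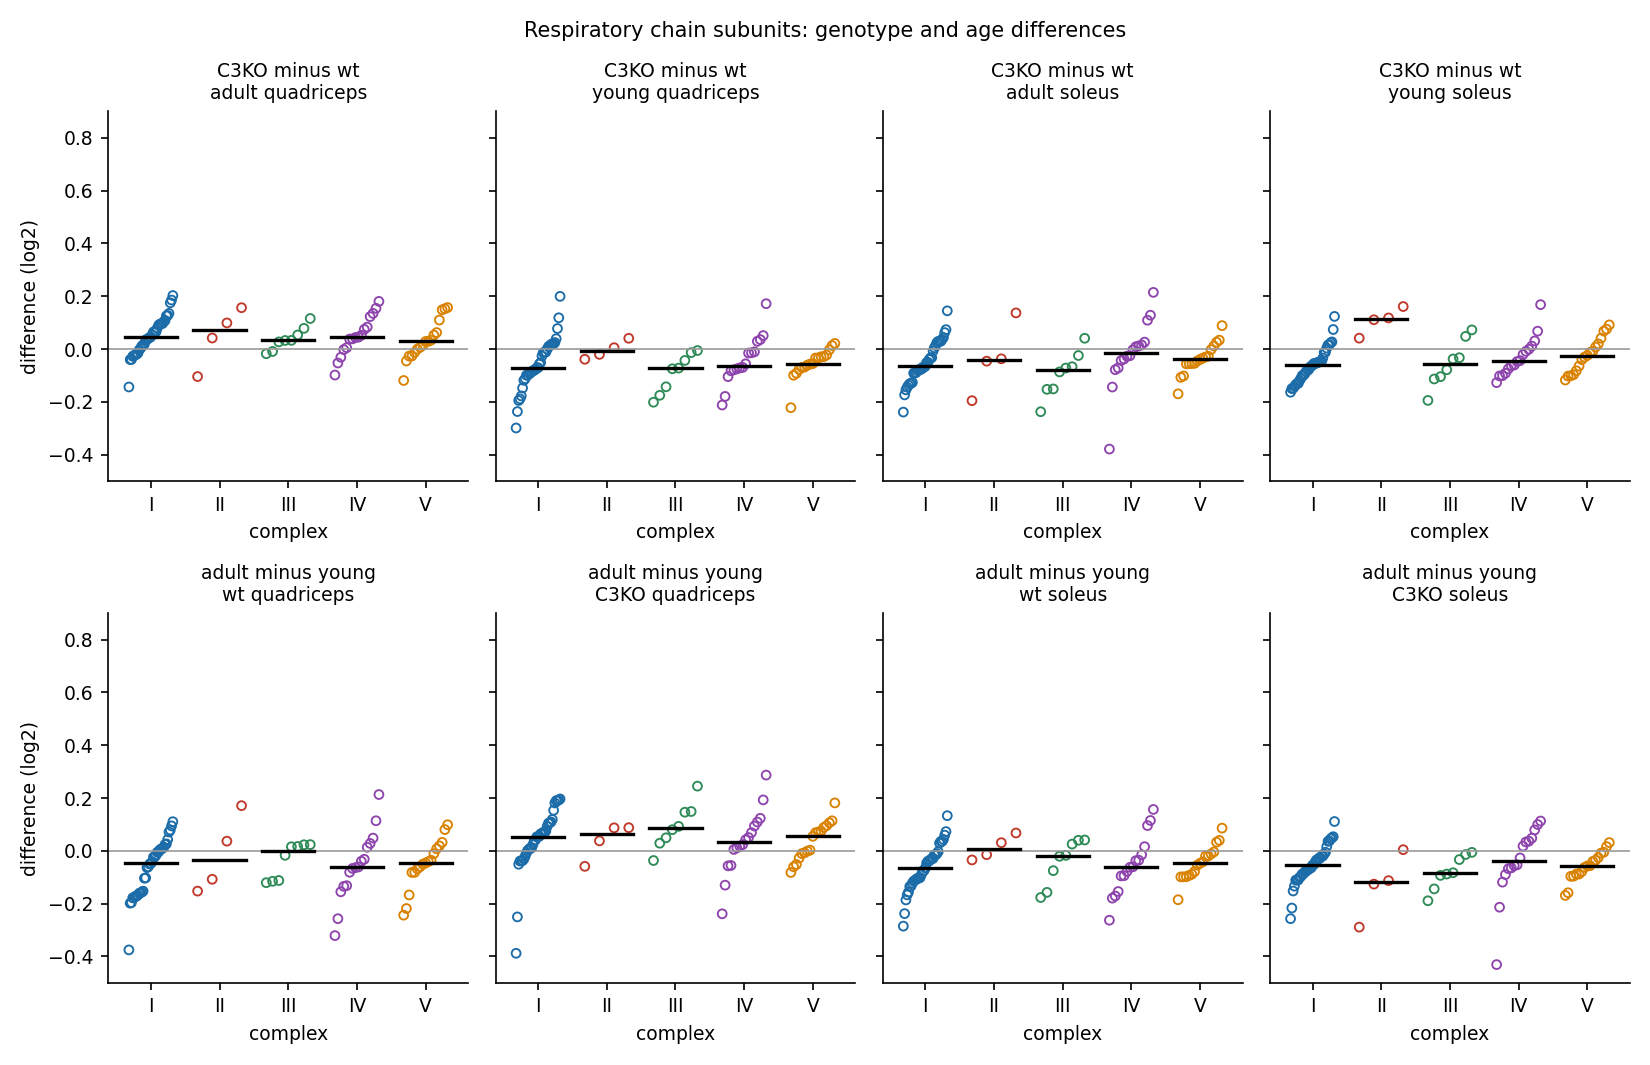
Difference (log2, vertical axis) of each of the 80 tested subunits, by complex, for genotype (upper row) and age (lower row). Open points did not pass at an adjusted p under 0.05, bars are medians, and no filled point appears in any panel, and the vertical axis is that of the plot of muscle differences.

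In adult quadriceps the smallest p values of each complex belonged to Ndufb3 (0.20 ± 0.09) and Ndufa6 (0.18 ± 0.08) of complex I, Sdhb (0.16 ± 0.09) and Sdha (−0.10 ± 0.08) of complex II, Uqcrfs1 (0.08 ± 0.07) and Uqcrq (0.12 ± 0.12) of complex III, Cox6a1 (0.18 ± 0.08) and Cox6c (0.14 ± 0.06) of complex IV, and Atp5md and Atp5j (0.15 ± 0.07 each) of complex V. Their adjusted p values were 0.423 or more. In adult soleus Uqcrh had the smallest p (−0.24 ± 0.08, adjusted p = 0.247, limma). Its lowest, median and highest levels were 12.36, 12.42 and 12.60 in C3KO, against 12.54, 12.69 and 12.93 (lowest, median and highest) in wt, so the genotypes overlapped. Cox7c (−0.38 ± 0.14), Ndufa4 (−0.24 ± 0.09) and Sdhd (−0.20 ± 0.10) had the next values in their complexes, and Ndufb6 (−0.15 ± 0.07) was read lower in all C3KO arrays than in any wt array. The probe set of Cox7c is dim, with a mean level of 5.44. In young quadriceps Ndufs4, an accessory subunit beside the electron path of complex I, read 11.02, 11.16, 11.37 and 11.43 in C3KO and 11.44, 11.50, 11.54 and 11.70 in wt. These arrays do not overlap, and the difference was −0.30 ± 0.13 (adjusted p = 0.365, limma). Ndufs5 (−0.19 ± 0.09) and Cox7a1 (−0.21 ± 0.10) did not overlap either. Complex II had the smallest values there, with Sdhb at −0.04 ± 0.12 and Sdhd at 0.04 ± 0.15, while Uqcr11 (−0.20 ± 0.11) and Atp5g1 (−0.22 ± 0.13) led complexes III and V. In young soleus the smallest p belonged to Ndufb10 (−0.16 ± 0.08, adjusted p = 0.514, limma). The leading values of the other complexes were 0.16 ± 0.12 for Sdhd, −0.19 ± 0.11 for Uqcr11, −0.10 ± 0.09 for Cox7a2 and −0.12 ± 0.11 for Atp5k. Mean 3′ minus 5′ actin signal, a sign of RNA quality, was 0.157 in wt and 0.272 in C3KO adult quadriceps and 0.367 and 0.143 in young soleus, and its part in these values was not tested beyond the fit with it as a covariate, which called no member.

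A complex I assembly factor did differ by genotype. Ndufaf1, which helps to build an intermediate of complex I, was lower in C3KO in all 4 comparisons, by log2 values of −0.39 ± 0.08 in adult quadriceps, −0.54 ± 0.10 in young quadriceps, −0.38 ± 0.08 in adult soleus and −0.61 ± 0.10 in young soleus (adjusted p = 0.0201, 0.0104, 0.0409 and 0.00561, limma). Its lowest, median and highest levels in quadriceps were 9.17, 9.58 and 9.70 in wt adults, 9.02, 9.08 and 9.25 in C3KO adults, 9.45, 9.53 and 9.61 in wt young and 8.92, 9.00 and 9.06 in C3KO young mice. Adult genotypes overlapped in quadriceps (lowest wt 9.17, highest C3KO 9.25), and young ones did not. In adult quadriceps the call was lost without wt mice M2-2 (−0.37), W2-1 (−0.35) or X2-3 (−0.35), with the actin covariate (−0.38, adjusted p = 0.0538, limma) and with code 1-3 alone (−0.38, adjusted p = 0.328, limma). In soleus the lowest and highest levels were 9.55 and 9.91 in wt adults, 9.20 and 9.51 in C3KO adults, 9.75 and 9.94 in wt young and 9.16 and 9.37 in C3KO young mice, with no overlap of genotypes. In adult soleus the call was lost without W2-1, W2-3, X2-2, Q2-1, Q2-2, Q2-3, U2-1 or U2-2 (values from −0.34 to −0.40), and in young soleus without H4-1 (−0.59). The adult soleus call was also lost with no filter, with plain probe sets and with the H4-2 array (−0.38 each, adjusted p = 0.0508, 0.0544 and 0.0948, limma), with code as a block (−0.35, adjusted p = 0.108, limma) and with code 1-3 alone (−0.28, adjusted p = 0.356, limma). Ndufaf1 lies on the chromosome of Capn3 with 18 protein-coding genes between them in the RefSeq gene table, and a part of that position in the difference was not tested. Of the members, 6 lie on that chromosome, the nearest of them Ndufs3 with 232 protein-coding genes between. Of the other 42 assembly factors tested, Ttc19 passed in young quadriceps (−0.40 ± 0.09, adjusted p = 0.0277, limma), a call lost without any 1 of 6 of the 8 mice (values from −0.37 to −0.42). Fatty acid oxidation, citric acid cycle, electron carrier and glycolysis genes had no call in any genotype comparison.

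Age left the subunits without a call as well. Limma called 0 of 80 members in wt quadriceps (5.43% of all genes, 2.94% higher and 2.49% lower), C3KO quadriceps (1.16%, 0.445% higher and 0.714% lower), wt soleus (0.88%, 0.352% and 0.528%) and C3KO soleus (1.18%, 0.897% and 0.285%). At an unadjusted p under 0.05 there were 9, 6, 5 and 5 members, lower shares than those of all genes (20.1%, 11.6%, 13.6% and 14.6%). Of the 9 in wt quadriceps all were lower in adults (9.72% of all genes were lower at that p), and of the 6 in C3KO quadriceps 5 were higher (5.36%). All 5 in each soleus comparison were lower (8.83% of all genes in wt and 4.57% in C3KO). The median member differed by −0.05, 0.05, −0.04 and −0.06, against 0.00, 0.01, −0.01 and 0.03 over all genes, and intervals lay within ± 0.5 for 77, 76, 79 and 77 members. Adult and young arrays did not overlap for 4, 0, 8 and 8 members (all genes: 5.85%, 2.34%, 5.36% and 8.19%). In wt quadriceps the values nearest the threshold were those of Cox6a1 (−0.32 ± 0.10, adjusted p = 0.0572), Ndufs4 (−0.38 ± 0.12, adjusted p = 0.0603) and Atp5d (−0.24 ± 0.08, adjusted p = 0.0880, limma). Cox6a1 passed without W2-1 (−0.36), F4-1 (−0.38) or F4-2 (−0.37), and Ndufs4 passed without W2-1 or W2-3 (−0.42 each). Ndufs4 read 11.44 to 11.70 in the young wt mice and 10.86 to 11.40 in the adult ones, which do not overlap. Ndufa10 had negative values in C3KO quadriceps (−0.39 ± 0.14), wt soleus (−0.29 ± 0.10) and C3KO soleus (−0.26 ± 0.10), with adjusted p values of 0.221, 0.171 and 0.230 (limma). In C3KO quadriceps it passed without young mouse H4-1 (−0.57). Cox7c (−0.43 ± 0.16, from a dim probe set with a mean level of 5.44) and Sdhd (−0.29 ± 0.11) had the largest negative values in C3KO soleus. There Uqcrfs1 had −0.19 ± 0.08 and Atp5o, of the stalk of the ATP synthase, −0.17 ± 0.08. In wt soleus Cox6a1 (−0.26 ± 0.10), Atp5d (−0.19 ± 0.09) and Uqcrfs1 (−0.16 ± 0.08) led their complexes, and in C3KO quadriceps Uqcr11 (0.25 ± 0.10), Cox8c (0.29 ± 0.13) and Atp5e (0.18 ± 0.12) did so with positive values. Fibroblast and tendon genes were lower in adults in 4, 3 and 2 of 9 cases in wt quadriceps, C3KO quadriceps and wt soleus. Slow fibre genes had no call for age, with 1 of 12 positive in wt quadriceps (median −1.45) and 11 of 12 in C3KO quadriceps (median 0.38). The part of either list in the subunit values was not tested. Ppara, a regulator of fatty acid oxidation, was lower in wt adult than young quadriceps (−1.29 ± 0.25, adjusted p = 0.00408, limma), a call lost with the actin covariate for RNA quality (−1.09).

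Differences between these comparisons were tested in 6 contrasts, and limma called 0 of 80 members in each. Of all genes, 0% passed for the genotype effect on the muscle difference in adults and 0.0164% in young mice, 0.0164% and 0.0982% (0.0818% higher and 0.0164% lower) for the age effect on it in wt and C3KO mice, and 0.378% and 0.277% for the genotype effect on the age difference in quadriceps and soleus. At an unadjusted p under 0.05 there were 4, 0, 1, 5, 2 and 2 members in that order, lower shares than those of all genes (7.64%, 5.39%, 6.99%, 10.5%, 11.5% and 12.7%). Ndufs4 in quadriceps had the smallest adjusted p among these (0.48 ± 0.16, adjusted p = 0.213, limma), with medians of 11.52 in wt young, 11.26 in C3KO young, 11.20 in wt adult and 11.39 in C3KO adult mice. Values were positive for 23, 54, 29, 10, 69 and 41 of 80 members in the order given above. Their medians were −0.07, 0.03, −0.01, −0.14, 0.10 and 0.00, against 0.02, −0.05, −0.02, 0.04, 0.00 and 0.05 over all genes. Signs leaned furthest 1 way in 2 of these contrasts. In C3KO the muscle difference was less positive or more negative in adults than in young mice for 70 of 80 members. In quadriceps the C3KO minus wt difference was more positive in adults for 69 of 80. Slow fibre genes leaned the same ways in these 2 contrasts. They had 0 of 12 positive values in the C3KO contrast (median −0.97) and 11 of 12 in the quadriceps contrast (median 1.89), and none passed. In quadriceps their C3KO minus wt difference was positive in 12 of 12 in adults (median 1.45) and in 2 of 12 in young mice (median −0.29). Their part in the subunit values was not tested. Subunits measured on the same arrays share their errors, and 3 C3KO young mice enter the age contrast of the muscle difference in C3KO. Intervals lay within ± 0.5 for 68, 67, 71, 55, 63 and 74 members in the order given, with median standard errors of 0.116 to 0.146, against 0.0737 to 0.110 in the comparisons themselves.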

How the data were processed

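Values were used as deposited: 1 table of log2 expression values that the authors deposited for 42 arrays, on a mouse platform of 45101 probe sets. The submitters' processing notes name MAS5 and RMA but give neither a role, and how background, scaling and summarisation were done is not given in the sources used here. RNA was Trizol-extracted and hybridised as biotin-labelled cRNA, per the labels' protocols. Arrays have no read depth, so their number limits the precision.

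Probe sets with 1 gene symbol (34945) were kept, and a gene's probe set with the highest mean was tested if 4 or more arrays of the fit had it above their own median. Muscles were compared by the difference within each mouse, because the labels name the same mouse for both muscles. The deviations of both muscles of a mouse from their group means correlated between −0.16 and 0.38 (median 0.18, over 0.1 in 14 of 18 mice). Genotype and age were compared within a muscle, with the 4 groups in 1 fit. The code that starts the description was not balanced over the groups. Among the wt adults used only M2-2 has code 1-1, and among C3KO adults Q2-1, Q2-2, Q2-3 and the quadriceps of Q2-4 have it. All other arrays used, with every young one, have code 1-3. The code is thus partly mixed with genotype in adults and with age. The H4-2 soleus array, left out, has a code that no other array has. All 18 comparisons used lmFit and eBayes of limma 3.58.1 under R 4.3.3, two-sided, with Benjamini-Hochberg adjustment over all genes tested at 0.05. Errors after ± are standard errors unless marked SD. The fits were tested on simulated data.

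The rule for named genes, from which the text gives the leading ones, is up to 4 called members with the largest change per comparison and complex, the 2 smallest p values where none was called, the tissue isoforms, succinate dehydrogenase, Capn3 and up to 4 called genes of each other list. Other members are named for their stability over mice or their role, after their values were seen. The members and lists were chosen with earlier results of these data known. Alternatives were quantile normalization, no filter, only plain probe sets (an ID that ends in _at with no letter for cross-matching), the H4-2 soleus array, an actin 3′ to 5′ covariate for RNA quality, the code that starts the description (as a block, or code 1-3 alone), no pairing, and each mouse left out. Other probe sets of the isoform pairs were added after seeing the data.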

Additional observations from a re-analysis of the deposited data

Results flagged for a closer look

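Of 44 sets of values checked (the mean level of each complex in each group of 4 or more arrays, and the isoform shifts in each group of 4 or more mice), 2 held a value far from the others, and chance marks about 1 in 20 such sets. The mean level of the complex II subunits in soleus of wt adult mouse X2-2 was 11.83, while the other arrays of its group lay between 11.98 and 12.03. In C3KO adult mouse Q2-4 the shift of Cox8a against Cox8b between soleus and quadriceps was −0.037, while the other mice of its group lay between 0.39 and 0.60. Among the mice compared between muscles, only Q2-4 has arrays with different codes (1-1 for quadriceps and 1-3 for soleus). The part of the code in this value was not tested.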

How the results depend on the processing

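The count of members called in the soleus and quadriceps comparison changed with these alternatives, by over 1.5 times with plain probe sets, with code 1-3 alone in the adults, and without some mice in each group but C3KO adults. With plain probe sets it was 17, 21, 19 and 17 in wt adult, C3KO adult, wt young and C3KO young mice, with fewer members tested, and with code 1-3 alone it was 15 in wt adults and 9 in C3KO adults, with fewer mice. Without 1 mouse it ranged from 17 to 26, from 30 to 35, from 18 to 23 and from 12 to 19. Without the replicate block (unpaired) the counts were 37, 44, 31 and 32. For age in wt quadriceps, 3 members passed with plain probe sets, 2 after quantile normalization and 0 to 2 without 1 mouse, and in C3KO quadriceps 0 to 1 passed without 1 mouse. The cause was not tested. In the genotype comparisons and the 6 contrasts between comparisons the count was 0 under every alternative run.

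Signs turned in 14 cases among the named members. With the actin covariate in young soleus, C3KO minus wt became 0.00157 for Atp5j2, 0.028 for Atp5k and −0.015 for Sdha, and adult minus young in wt soleus became −0.036 for Sdhd. With plain probe sets Ndufab1 had a muscle difference of −0.16 in C3KO young and −0.092 in wt young mice, Uqcrq had −0.026 in wt young mice and an age difference of 0.032 in C3KO soleus, and Uqcrh had a genotype difference of 0.00871 in young soleus. With code 1-3 alone Uqcrq had −0.00982 for genotype in adult quadriceps. For genotype in young quadriceps, leaving out 1 mouse gave −0.069 to 0.023 for Sdhb (0.023 without H4-1) and −0.029 to 0.16 for Sdhd (−0.029 without H4-2, −0.00208 without J4-1 and −0.015 without F4-4). The cause of these turns was not tested. With any 1 mouse left out the isoform shifts ranged from 0.34 to 0.39 for Cox6a1, from −0.30 to −0.26 for Cox7a2 and from 0.36 to 0.41 for Cox8a, and each passed in all 18 fits. The number of arrays limits every comparison.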

Other observations

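Mrps12, a protein of the small mitochondrial ribosomal subunit, was lower in C3KO than in wt young mice by log2 values of −0.84 ± 0.15 in quadriceps and −1.09 ± 0.18 in soleus (adjusted p = 0.00458 and 0.00363, limma), and lower in adult than in young wt mice (−0.62 ± 0.14 in quadriceps and −0.84 ± 0.15 in soleus). Each of these comparisons has the wt young mice on one side, and the name prefix F4 of all of them cannot be told apart from genotype or age. The soleus call for genotype was lost without H4-1 (−0.99), and that for age without F4-2 (−0.82). In quadriceps the call for age was lost with the actin covariate (−0.61, adjusted p = 0.0547, limma).

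The arrays of wt adult mouse M2-1, which have no assigned muscle, gave these levels. The array titled soleus read 11.75 for Ndufv1, 8.61 for Cox8a and 9.83 for Sdhc, with a slow fibre mean of 6.83. The array titled quadriceps read 12.71, 9.17 and 10.83, with a slow fibre mean of 12.70.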
